A study of Mus musculus with 12 samples.

Results

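The genes of DNA replication and S phase were examined in cultured mouse pancreatic cancer cells. They are 37 genes, listed by symbol, that license replication origins, run the replication fork, supply nucleotides and chromatin to it and control entry into S phase, and 36 of them had at least 1 of their own probe sets (80 of the 45037 tested). Chaf1a is the listed gene without a probe set in the annotation used. Cells with a mutant p53 allele were set against cells without p53, and cells without p53 to which a mutant p53 was added were set against their vector controls, on 12 arrays in 4 groups of 3. The mt-CCs came from a mouse tumor with a Pdx1-Cre driver that carried LSL-K-ras G12D/+ together with LSL-Trp53 R172H/+. The fl-CCs + p53 R175H were fl-CCs transfected with human p53 R175H, and the fl-CCs + EV were fl-CCs transfected with the empty vector. The fl-CCs came from a mouse tumor with Pdx1-Cre and LSL-K-ras G12D/+ that carried LSL-Trp53 fl/+ in place of the mutant allele, and are given in the labels as null for Trp53. All cells thus derive from tumors in which Pdx1-Cre, active in the pancreas, switched on K-ras G12D. Each model was represented by a single cell line, so a difference between the mt-CCs and the fl-CCs is one between lines of different tumors. All were grown to 60% confluency without drug treatment, and only the transfected groups had G418, the selecting antibiotic, at 0.6 mg/ml. The arrays of a group are biological triplicates of a line.

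Before a cell enters S phase, the origin recognition complex, Cdc6 and Cdt1 load the ring of Mcm proteins on DNA, a step called licensing. Kinases, among them Cdk2 with cyclin E, then switch the loaded helicase on together with Cdc45, the GINS complex and Mcm10, and polymerases held by the Pcna clamp copy the strands. Many of these genes are transcribed in late G1 and S phase under the E2F transcription factors, which the retinoblastoma protein restrains, and wild-type p53 can lower them through the Cdk inhibitor p21. In RNA of a whole culture, a smaller share of cells in S phase and less RNA per cell cannot be told apart.

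Because E2F sites are a known feature of these genes, the promoters of 4 members on which results below turn, or in which several matches lie close together, are shown. Promoter windows of 300 bases (250 before and 50 after the start, RefSeq, build GRCm38.p6) were found for 31 of the 37 genes. Of these, 20 (64.5%) held at least 1 of the runs of letters TTGGCGC, or TTCCCGC, or TTCGCGC, or TTGCCGC on either strand, against 2936 of 27025 genes with a promoter in the same table (10.9%). In the 250 bases before the start alone, 14 members (45.2%) and 9.01% of all genes held a match. Matches on opposite strands can overlap, as in TTGGCGCGAA, where each was counted. Capitals mark the matched letters, and each sequence runs 5′ to 3′ on the strand of the gene and ends at the last base before the start. Orc1 lies on chr4:108579412-108579453 (plus strand), Mcm6 on chr1:128359706-128359829 (minus strand), Pola1 on chrX:93632156-93632339 (minus strand) and Rrm1 on chr7:102441613-102441694 (plus strand).
Orc1: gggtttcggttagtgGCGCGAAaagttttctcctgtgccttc
Mcm6: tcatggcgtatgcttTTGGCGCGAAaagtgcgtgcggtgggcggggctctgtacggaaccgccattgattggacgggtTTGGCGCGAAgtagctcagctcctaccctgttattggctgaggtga
Pola1: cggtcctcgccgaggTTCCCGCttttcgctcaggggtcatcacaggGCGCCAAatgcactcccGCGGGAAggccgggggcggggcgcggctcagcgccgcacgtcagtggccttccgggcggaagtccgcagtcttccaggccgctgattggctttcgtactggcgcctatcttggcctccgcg
Rrm1: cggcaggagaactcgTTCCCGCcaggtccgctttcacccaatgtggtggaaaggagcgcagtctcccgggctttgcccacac
The windows of Mcm2, Mcm10, Pcna, Tk1, Ccne1 and E2f1 held none of these runs of letters. Of a wider list of replication genes, 33 of 55 (60%) held at least 1 match. A match is a run of letters and no measured site.

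Expression is given as the deposited log2 RMA value, on which a difference of 1 is a doubling. Values of different genes come from different probes and are not compared. Of the 36 genes, 28 had more than 1 probe set, and each is represented by the one with the smallest p over the 4 groups. A gene was called where the Benjamini-Hochberg adjusted p of limma, over all probe sets, was 0.05 or less. All 12 arrays had a median of 5.59. Over all probe sets the correlation was 0.994 to 0.9962 between arrays of a group and 0.9594 to 0.9625 between an mt-CC array and one of another group. Epithelial markers summed to 97.4 to 98.0 on the log2 scale in the mt-CCs and 110.5 to 110.8 in the fl-CCs (12 genes, of which 9 were called lower and 1 higher in the mt-CCs). Their sums were 107.1 to 109.3 in the fl-CCs + p53 R175H and 107.5 to 107.8 in the fl-CCs + EV. Fibroblast markers summed to 62.3 to 63.5 in the mt-CCs and 46.6 to 47.1 in the fl-CCs (12 genes), and 5 of them in the mt-CCs and 9 in the fl-CCs lay under 5, near background, on every array. Their sums were 48.3 to 49.2 in the fl-CCs + p53 R175H and 47.1 to 48.1 in the fl-CCs + EV. Of 7 leukocyte markers measured, Ptprc, Cd3e, Itgam and Tyrobp were under 5 on every array, Laptm5 and Csf1r reached at most 5.33 and 5.69, and Cd68 averaged 7.66 in the mt-CCs and 5.75 in the fl-CCs (1.91, adjusted p = 1.48e-07). Laptm5 was called higher with p53 R175H than with EV, and Ptprc, although under 5, lower with p53 R175H than with EV and higher with EV than in the fl-CCs. Of 5 endothelial markers, Pecam1, Cdh5, Kdr and Tek were under 5 on every array and Esam reached at most 5.31, and between the mt-CCs and the fl-CCs 3 of the 5 were called lower and 1 higher. The part of all these markers in the differences below was not tested.

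Replicate 1 of the fl-CCs stood apart from the other fl-CC arrays in these genes. It was the highest fl-CC array in 36 of 36 members, against 36.9% of all genes, and lay a median of 0.63 above the mean of the other fl-CC arrays (0.07 to 1.30 over the members, -0.00 over all genes). The other 2 fl-CC arrays differed by a median of 0.08. The licensing factor Cdc6 shows it plainly, with 9.82 in fl-CCs replicate 1 and 8.74 and 8.66 in the other fl-CC arrays. Mitosis and G2/M genes were also higher in that array, by a median of 0.46 (29 of 29 genes). The median SD of a member was 0.09 in the mt-CCs, 0.14 in the fl-CCs + p53 R175H, 0.10 in the fl-CCs + EV and 0.37 in the fl-CCs, where it was 0.05 over the arrays without replicate 1. Counts, medians and differences of members that rest on the fl-CCs are therefore given with and without that array, and fl-CC means are over all 3 arrays. The array was singled out by the values of these same members. The share of all genes called without it is thus not a like background for the members.

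**Figure D1:**
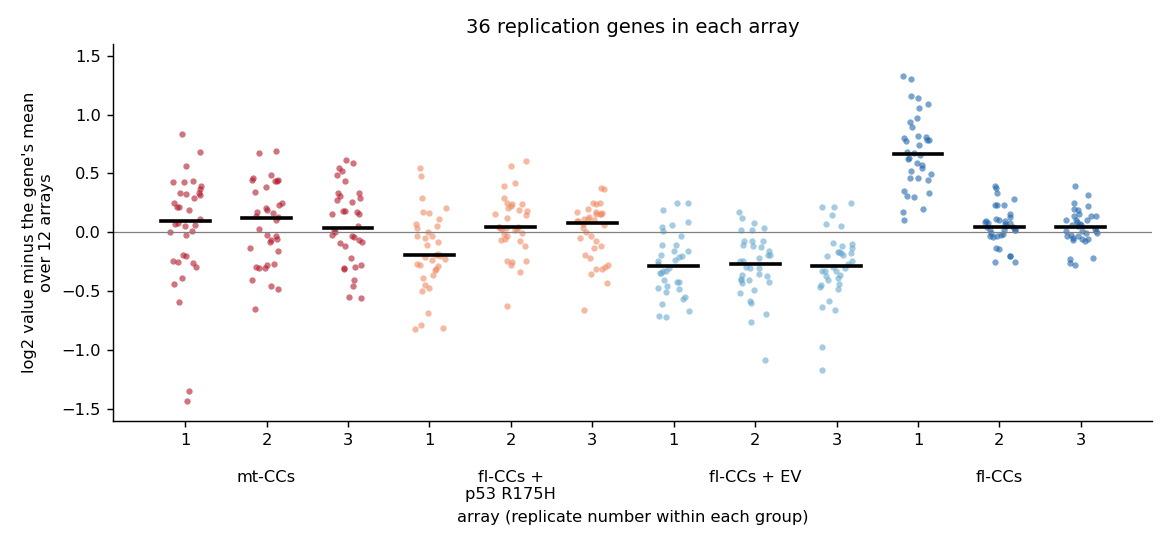
Deviation of each of 36 replication genes (points) from its own mean over 12 arrays, on the log2 scale, for each array of the mt-CCs, fl-CCs + p53 R175H, fl-CCs + EV and fl-CCs; black lines are medians over genes. The median was 0.66 in fl-CCs replicate 1 and 0.04 in each of the other fl-CC arrays, and lay between -0.29 and -0.27 in the EV arrays.

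Across the 4 groups, the fl-CCs + EV held the lowest mean of a member most often, in 22 of 36 genes, followed by the mt-CCs with 9, the fl-CCs + p53 R175H with 5 and the fl-CCs with 0. These counts were the same without fl-CCs replicate 1. The highest mean was found in the fl-CCs for 18 genes, in the mt-CCs for 12, in the fl-CCs + p53 R175H for 5 and in the fl-CCs + EV for 1. Without fl-CCs replicate 1 the mt-CCs held the highest mean of 18 genes and the fl-CCs of 9. The order of the mt-CCs and the fl-CCs at the top thus turned on 1 array.

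The first comparison asked how replication genes differ between cancer cells with mutant p53 and cells without p53. In the mt-CCs, 11 of 36 genes were lower and 2 higher than in the fl-CCs, that is 30.6% and 5.56% of the members, beside 20.2% and 21.2% of all genes (41.4% called either way). At an unadjusted p under 0.05 there were 16 members, 44.4% against 49.9% of all genes. The lower genes were the helicase subunits Mcm2, Mcm4, Mcm6 and Mcm7, the licensing factors Cdt1 and Orc1, and Mcm10, Rfc3, Rrm1, Rrm2 and Ccne2, and the higher ones were Rfc4 and E2f1. Without fl-CCs replicate 1, 5 genes were lower and 8 higher, beside 18.7% and 20.1% of all genes (38.8% called either way). Mcm2, Mcm6, Cdt1, Orc1 and Ccne2 were then lower and Rfc4, E2f1, Gins1, Rfc2, Prim1, Pole2, Tk1 and Chaf1b higher, and each of these 13 had a difference in the same direction over all 12 arrays. The median difference over the members was -0.14 with all arrays and 0.10 without that array, against -0.01 and -0.00 over all genes. The groups did not overlap, with the mt-CCs lower, in 16 members, and with the mt-CCs higher in 1 (26.3% of all genes in each direction), and without fl-CCs replicate 1 in 16 each way (30.7% of all genes lower and 30.6% higher).

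The lower genes were mainly those of licensing, of which 6 of 10 were lower in the mt-CCs with all arrays and 4 without fl-CCs replicate 1 (none was higher in either fit). Orc1, the largest subunit of the origin recognition complex, had 5.27, 6.22 and 6.25 in the mt-CCs and 7.79, 7.04 and 6.93 in the fl-CCs. The groups did not overlap, and the difference was -1.34 ± 0.27 (SE, adjusted p = 0.00244), or -1.08 (adjusted p = 0.0109) without fl-CCs replicate 1. Its other probe set gave -0.02 and was not called. Cdt1, which brings the Mcm ring to origins and is destroyed in S phase, had 10.52, 10.60 and 10.63 in the mt-CCs against 11.56, 11.14 and 11.10 in the fl-CCs. Its difference was -0.68 ± 0.12, and -0.54 without replicate 1 of the fl-CCs. Mcm6, a helicase subunit with one of the promoters shown above, had 11.63, 11.76 and 11.81 in the mt-CCs and 12.32, 12.26 and 12.25 in the fl-CCs. In this probe set the array that stood apart hardly mattered (-0.54 with it, -0.52 without). Another probe set of Mcm6 gave -0.56 with that array and -0.43 without it, and was called in both fits. Mcm2 differed by -0.71 and by -0.54 without that array. Mcm4 (-0.41) and Mcm7 (-0.33) were lower over 12 arrays but not without it, where they gave -0.36 (adjusted p = 0.0894) and -0.25 (adjusted p = 0.0916). The other probe set of Mcm4 gave 0.01, and 0.19 without that array, and the other 3 of Mcm7 gave -0.38 to -0.12, none of them called. Mcm3, Mcm5, Cdc6 and Orc6 were called in neither fit. Their differences were -0.55 to -0.09 over 12 arrays, and without fl-CCs replicate 1 those of Mcm3 and Mcm5 were positive (0.15 and 0.30) and those of Cdc6 and Orc6 were -0.18 and -0.16. Of the 13 genes called over 12 arrays, 12 had another probe set with a mean of at least 5, and in 5 of these every such probe set was called in the same direction.

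Of the cyclin E genes one was lower in the mt-CCs and the other was not called. Ccne2, one of the cyclin partners of Cdk2 at the start of S phase, had 3.89, 4.59 and 4.69 in the mt-CCs, all near background, and 6.38, 5.62 and 5.38 in the fl-CCs. Measured against the background level of 5, it was lower by at least 0.79 on the log2 scale in the mt-CCs (adjusted p = 0.00123). That bound takes the fl-CC mean over all 3 arrays, which replicate 1 raises. The measured means differed by -1.40, or -1.10 without fl-CCs replicate 1. Ccne1, its close relative, had 6.96, 6.91 and 6.85 in the mt-CCs and 7.21, 6.41 and 6.44 in the fl-CCs, which overlap (0.22 ± 0.23, adjusted p = 0.53). With replicate 1 of the fl-CCs left out it gave 0.48 and was not called either (adjusted p = 0.0943). E2f1, the transcription factor that drives many genes of this list, had 7.66, 7.71 and 7.66 in the mt-CCs and 7.50, 7.28 and 7.29 in the fl-CCs. It was higher in the mt-CCs by 0.32 ± 0.09 (adjusted p = 0.0147), and by 0.40 without fl-CCs replicate 1. Another of its 3 probe sets was called higher and the remaining one gave -0.09. A higher E2f1 mRNA thus stood beside lower licensing genes in the mt-CCs.

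At the origin and the fork the picture was mixed. Mcm10, which helps the helicase to start, had 7.66, 7.90 and 8.10 in the mt-CCs and 9.23, 8.32 and 8.32 in the fl-CCs. The difference of -0.74 ± 0.24 (adjusted p = 0.0372) was -0.44 (adjusted p = 0.133) without fl-CCs replicate 1. The other probe sets of Mcm10 were also called lower over 12 arrays. Without that array 1 of these was still called lower (-0.65, adjusted p = 0.0157) and the other was not called (-0.39, adjusted p = 0.157). Rfc4, a small subunit of the loader that opens the Pcna clamp, went the other way, with 10.67, 10.52 and 10.35 in the mt-CCs and 10.40, 9.85 and 9.94 in the fl-CCs. The top fl-CC array lay within the range of the mt-CCs, and the difference of 0.45 ± 0.14 (adjusted p = 0.0286) became 0.62 (adjusted p = 0.00222) without it. The other probe set of Rfc4 was not called over 12 arrays (0.34, adjusted p = 0.137). It was called higher without that array (0.56, adjusted p = 0.00438). Rfc3, a sister subunit of the same loader, was lower in the mt-CCs by -0.38 over 12 arrays and by -0.27 (adjusted p = 0.0943) without that array. The other probe set of Rfc3 gave 0.03, and 0.19 without it. None of the 5 polymerase and primase genes was called over all arrays (-0.49 to 0.25, 1 of them with an unadjusted p under 0.05). When fl-CCs replicate 1 was left out they gave -0.24 to 0.57, where Prim1, the catalytic primase subunit, was higher by 0.57 (adjusted p = 0.00469) and Pole2, a subunit of polymerase epsilon, by 0.41 (adjusted p = 0.0226).

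In nucleotide supply the calls turned on fl-CCs replicate 1. Both subunits of ribonucleotide reductase, which makes deoxyribonucleotides, were lower in the mt-CCs over 12 arrays. Rrm2, the small subunit, had 11.52, 11.50 and 11.48 in the mt-CCs and 12.27, 11.76 and 11.71 in the fl-CCs (-0.41 ± 0.13, adjusted p = 0.0319). Rrm1, the large subunit, had 10.00, 9.96 and 9.72 in the mt-CCs against 10.55, 10.14 and 10.22 in the fl-CCs (-0.41 ± 0.11, adjusted p = 0.0169). Neither pair of groups overlapped in these probe sets, yet without fl-CCs replicate 1 the differences of -0.24 and -0.28 missed the threshold (adjusted p = 0.0839 and 0.0598). In the other probe sets of Rrm2 the groups overlapped. These gave -0.30 and -0.41 over 12 arrays and 0.12 and -0.05 without that array, and were called in neither fit. Tk1, thymidine kinase of the salvage pathway, had 9.86, 9.85 and 9.79 in the mt-CCs and 10.07, 9.27 and 9.24 in the fl-CCs. Its difference of 0.30 was not called with all arrays (adjusted p = 0.251), and without fl-CCs replicate 1 it was 0.57 (adjusted p = 0.00137). Tyms, which makes thymidylate, gave 0.37, and 0.57 without that array, and was called in neither fit.

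Of the remaining members, Cdc45, Gins1 and Gins2 of the active helicase gave differences of 0.22, 0.04 and -0.36 between the mt-CCs and the fl-CCs, and were not called over 12 arrays. Neither were Pcna (0.03) and the clamp loader subunits Rfc2 (0.26) and Rfc5 (-0.15). Fen1, the nuclease that trims flaps on the lagging strand, gave -0.19 and Lig1, which seals them, -0.40. The chromatin genes Chaf1b, Uhrf1 and Slbp lay between -0.04 and 0.11, and between 0.16 and 0.37 without fl-CCs replicate 1. In that fit Cdc45 gave 0.47 (adjusted p = 0.0704), Gins2 -0.16, Pcna 0.18, Rfc5 0.05, Fen1 0.01 and Lig1 -0.18, none of them called. Of these genes, those that passed the test without fl-CCs replicate 1 were Gins1 (0.30, adjusted p = 0.0411), Rfc2 (0.42, adjusted p = 0.0152) and Chaf1b (0.37, adjusted p = 0.0197), all higher in the mt-CCs. The other probe set of Gins1 gave -0.41 over 12 arrays and -0.26 without that array, and was called in neither fit. The other probe sets of Rfc2 gave 0.06 and 0.03 without that array and were not called.

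**Figure D2:**
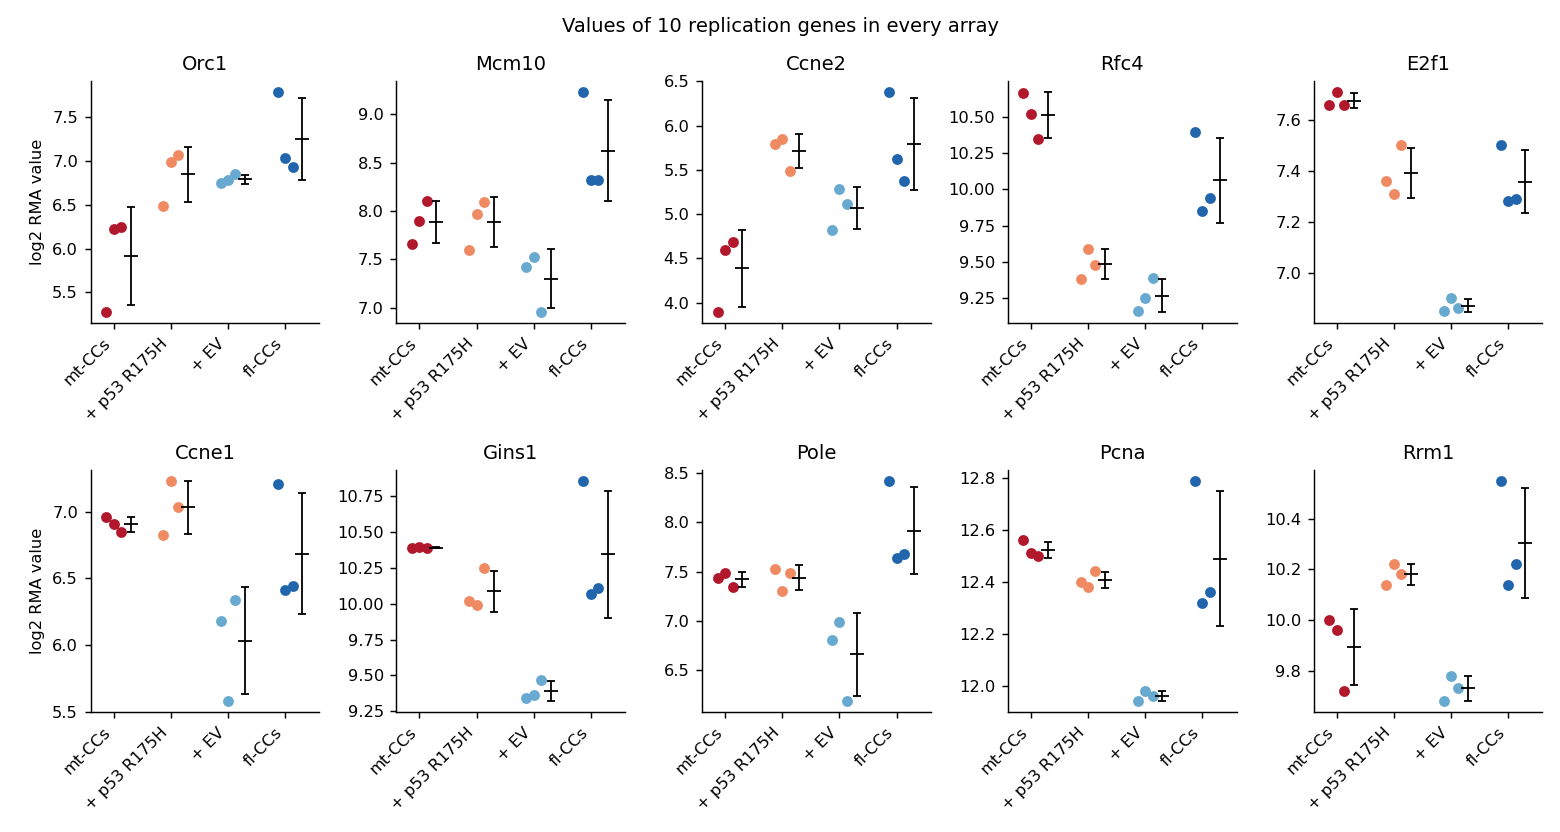
Log2 RMA values of 10 replication genes in each array (points) of the mt-CCs, fl-CCs + p53 R175H, fl-CCs + EV and fl-CCs, with the group mean and SD (bars, n = 3); each panel has its own axis, which does not start at 0. Orc1 and Ccne2 were lowest in the mt-CCs, Gins1, Pcna, E2f1 and Ccne1 were lowest in the fl-CCs + EV, and replicate 1 of the fl-CCs lies above the other fl-CC arrays in each panel.

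The next comparison asked whether adding mutant p53 to the p53-null line moved these genes. With p53 R175H, 6 of 36 genes were higher than with EV and 0 lower, that is 16.7% of the members higher beside 14.1% of all genes higher and 13.7% lower (27.8% called either way), so the share higher was near that of all genes. The 6 were Gins1, Pcna, Pole, Rrm1, Ccne1 and E2f1. At an unadjusted p under 0.05 there were 13 members, 36.1% against 39.2% of all genes. The median difference of the members was 0.23 against -0.01 over all genes, and 29 of the 36 differences were positive (8698 of 18193 over all genes). The groups did not overlap in 15 members with p53 R175H higher (22.4% of all genes) and in 4 with it lower (23.1%). These differences do not use the fl-CCs, but the spread of the test does. Without fl-CCs replicate 1, 13 members were higher (14.6% of all genes) and 3 lower (14.3%), with 28.9% called either way. The differences themselves are the same in both fits, so only the spread changed. The members' median SD in the fl-CCs was 0.37 with that array and 0.05 without it, and 0.12 over all genes with it. As the array was singled out by these members, the share of all genes is no like background for the added calls. The additional genes were Mcm2, Mcm10, Gins2, Pola1, Chaf1b, Slbp and Ccne2 among the higher, and Pole2, Rrm2 and Tk1 were lower.

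In the probe sets that stand for both cyclin E genes and for E2f1, every array with p53 R175H lay above every EV array. Ccne1 had 6.83, 7.23 and 7.04 with p53 R175H and 6.18, 5.58 and 6.34 with EV, a difference of 1.00 ± 0.23 (adjusted p = 0.00771). It had the largest difference of a member here, and both of its probe sets were called. E2f1 had 7.36, 7.31 and 7.50 with p53 R175H and 6.85, 6.90 and 6.86 with EV, and was higher by 0.52 ± 0.09 (adjusted p = 0.00131). Another E2f1 probe set was also called higher (0.66). In the remaining one the groups overlapped, and it was not called (0.32, adjusted p = 0.166). Ccne2 had 5.79, 5.85 and 5.49 with p53 R175H against 4.82, 5.28 and 5.11 with EV, close to background, and its 0.64 ± 0.26 was called only without fl-CCs replicate 1 (adjusted p = 0.113 with all arrays and 0.0486 without it).

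Among the genes of the moving fork, Gins1, a subunit of the GINS complex of the active helicase, had 10.02, 9.99 and 10.25 with p53 R175H and 9.34, 9.36 and 9.47 with EV (0.70 ± 0.17, adjusted p = 0.0132), while its other probe set gave 0.35 and was not called. Pcna, the sliding clamp, had 12.40, 12.38 and 12.44 with p53 R175H and 11.94, 11.98 and 11.96 with EV. Its 0.45 ± 0.11 (adjusted p = 0.0138) is larger than the SD within either group (0.03 with p53 R175H and 0.02 with EV). Pole, the catalytic subunit of the leading-strand polymerase, had 7.53, 7.30 and 7.49 with p53 R175H against 6.81, 6.99 and 6.19 with EV, a difference of 0.78 ± 0.22 (adjusted p = 0.0257). The EV arrays were spread more widely than those with p53 R175H in this gene. Pola1, the catalytic subunit of polymerase alpha, had 7.63, 7.94 and 7.98 with p53 R175H and 7.34, 7.15 and 7.25 with EV, and its 0.60 ± 0.21 just missed the threshold over 12 arrays (adjusted p = 0.0644, or 0.00402 when fl-CCs replicate 1 was left out).

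Rrm1 had 10.14, 10.22 and 10.18 with p53 R175H and 9.68, 9.78 and 9.73 with EV (0.45 ± 0.11, adjusted p = 0.0158). Its partner Rrm2 did not follow it, with 11.69, 11.81 and 11.58 with p53 R175H and 12.02, 11.89 and 12.02 with EV (-0.28 ± 0.13, adjusted p = 0.173, or 0.0331 when fl-CCs replicate 1 was left out). Tk1 likewise had 8.36, 8.55 and 8.52 with p53 R175H against 8.85, 8.75 and 9.01 with EV (-0.39 ± 0.18, adjusted p = 0.167, and 0.0102 without that array). None of the 10 licensing genes was called over all arrays (-0.34 to 0.39, 2 with an unadjusted p under 0.05), and without fl-CCs replicate 1 Mcm2 was higher by 0.39 (adjusted p = 0.0155). The probe set that stands for Mcm4 gave 0.37 (adjusted p = 0.0607), but its other probe set was called higher with p53 R175H, by 0.47 (adjusted p = 0.0232, and 0.00209 without that array). Orc1, the member with the largest fall in licensing in the mt-CCs, had 6.49, 6.99 and 7.07 with p53 R175H and 6.75, 6.78 and 6.85 with EV, which overlap.

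**Figure D3:**
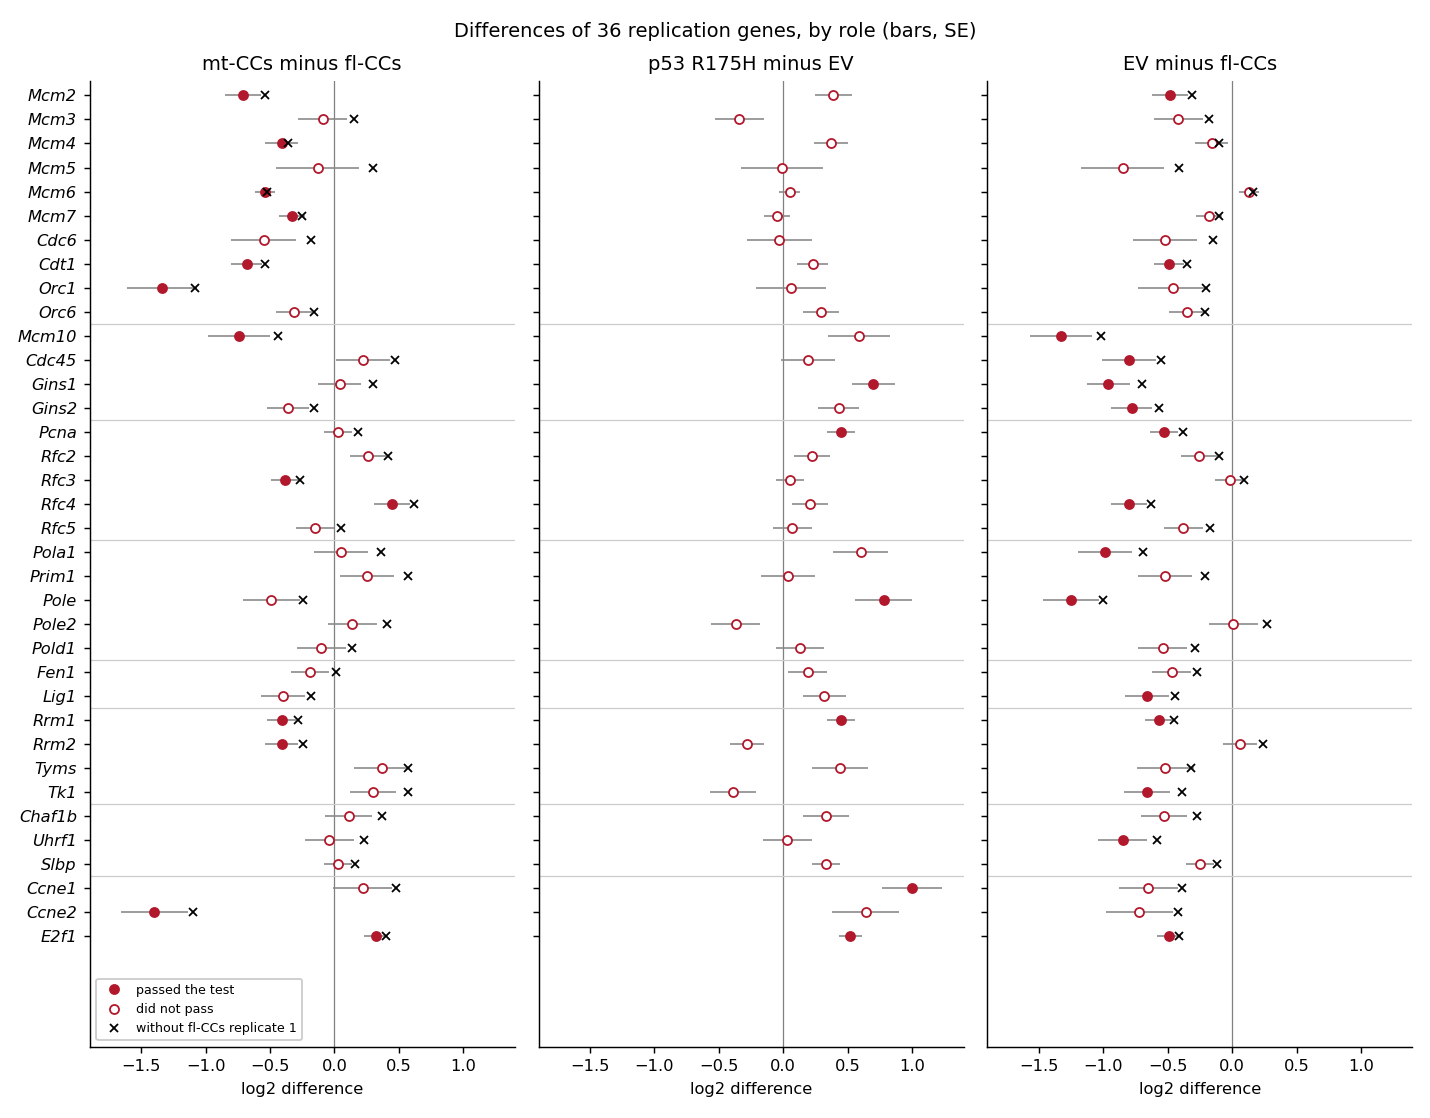
Log2 differences of 36 replication genes, ordered by role (grey lines divide the roles), for the mt-CCs minus the fl-CCs, p53 R175H minus EV, and EV minus the fl-CCs, with bars of 1 SE from limma; filled points passed the test, and crosses are the difference without fl-CCs replicate 1. Between the mt-CCs and the fl-CCs 11 genes lay lower and 2 higher, with p53 R175H 6 lay higher than with EV, and 15 lay lower with EV than in the fl-CCs.

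The vector control was compared with the parental line to see how far transfection and selection moved the same genes. The fl-CCs + EV had 15 of 36 genes lower and 0 higher than the fl-CCs, that is 41.7% of the members lower beside 8.18% of all genes lower and 9.33% higher (17.5% called either way). Without fl-CCs replicate 1, 12 were lower (6.2% of all genes) and 0 higher (7.22%), with 13.4% called either way. At an unadjusted p under 0.05 there were 27 members with all arrays (75%, against 31.4% of all genes) and 19 without it (52.8%, against 28.6%). The median difference was -0.52 and -0.31 without that array, and -0.00 over all genes in both fits. In 26 of 36 genes every EV array lay below every fl-CC array, with or without replicate 1 (18.8% of all genes, and 24.1% without it). Transfection, selection and G418 differ together between these groups and cannot be told apart. The EV arrays are also those against which p53 R175H was set, so the comparisons share them, and a low EV value enters them with opposite signs.

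All 4 origin firing genes were lower with EV, and 3 of them without fl-CCs replicate 1, where Cdc45 gave -0.55 (adjusted p = 0.0782). The other probe set of Cdc45 gave -0.15, or -0.11 without that array, and was called in neither fit. Mcm10 had 7.42, 7.52 and 6.95 with EV and 9.23, 8.32 and 8.32 in the fl-CCs, the largest difference of a member here (-1.33 ± 0.24, adjusted p = 0.00393, and -1.02 without fl-CCs replicate 1). All 3 of its probe sets were called. Gins1, with 10.86, 10.07 and 10.11 in the fl-CCs, all above the EV arrays given before, was lower with EV by -0.96 and by -0.70 without that array, and its other probe set, at -0.50, was not called. Cdt1 in the licensing group had 10.75, 10.83 and 10.73 with EV and 11.56, 11.14 and 11.10 in the fl-CCs, where the nearest arrays of the groups lay 10.83 against 11.10. Its difference was -0.49 (adjusted p = 0.0184), and when fl-CCs replicate 1 was left out it was -0.35 (adjusted p = 0.0451). Another probe set of Cdt1 was called over 12 arrays (-0.59, adjusted p = 0.0243) and not without that array (-0.42, adjusted p = 0.0792). Of the 10 licensing genes 2 were lower over 12 arrays and 1 without fl-CCs replicate 1, since Mcm2 passed the test in the first fit (-0.48, adjusted p = 0.0423) and not in the other (-0.31, adjusted p = 0.114). The 10 differences lay between -0.85 and 0.13, and between -0.41 and 0.16 without that array. Mcm4 was not called, while its other probe set was lower over 12 arrays (-0.46, adjusted p = 0.0417) and not without that array (-0.28).

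At the fork, Pole had 6.81, 6.99 and 6.19 with EV against 8.42, 7.64 and 7.68 in the fl-CCs, and was lower by -1.25 ± 0.22 (adjusted p = 0.00292), and fell by 1.00 without fl-CCs replicate 1. Rfc4 had 9.16, 9.25 and 9.39 with EV and 10.40, 9.85 and 9.94 in the fl-CCs (-0.80 ± 0.14, and -0.63 without that array). Pcna, with 12.79, 12.32 and 12.36 in the fl-CCs, was lower with EV by -0.53 and -0.38, and Pola1 by -0.99 and -0.69, each called in both fits. Lig1, the ligase that seals lagging-strand fragments, had 10.31, 10.40 and 10.21 with EV and 11.40, 10.72 and 10.77 in the fl-CCs. Its groups did not overlap, but the call at -0.66 (adjusted p = 0.0298) was lost without replicate 1 of the fl-CCs, at -0.44 (adjusted p = 0.0809). Tk1 had 8.85, 8.75 and 9.01 with EV and 10.07, 9.27 and 9.24 in the fl-CCs (-0.66, and -0.39 with an adjusted p of 0.0372 without that array).

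Uhrf1, which brings the maintenance DNA methyltransferase to newly copied DNA, had 8.50, 8.54 and 8.21 with EV against 9.81, 9.07 and 8.93 in the fl-CCs, and was lower by -0.85 ± 0.19 (adjusted p = 0.012), or by -0.58 without fl-CCs replicate 1. Both of its probe sets were called over 12 arrays, but the other one was not called without that array (-0.37, adjusted p = 0.0536). E2f1, at 6.85, 6.90 and 6.86 with EV, lay under all fl-CC arrays and was lower by -0.49 ± 0.09 (adjusted p = 0.00363), or by -0.41 without that array. Another E2f1 probe set was called over 12 arrays (-0.44, adjusted p = 0.0496) and not without that array (-0.30, adjusted p = 0.164). The remaining one gave -0.19 over 12 arrays and was called in neither fit. The histone chaperone subunit Chaf1b and Slbp, which binds the stem loop of histone mRNA, gave -0.53 and -0.25, or -0.27 and -0.12 without fl-CCs replicate 1, and were not called. Over 12 arrays Rrm2, Pole2 and Mcm6 were the members with a positive difference, at 0.06, 0.01 and 0.13. With fl-CCs replicate 1 left out they gave 0.24, 0.27 and 0.16 and Rfc3 was also positive, at 0.09, and none of the 4 was called in either fit.

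Of the members not described above, Rfc2, Rfc3, Rfc5, Prim1, Pold1, Fen1, Tyms, Ccne1 and Ccne2 gave differences of -0.72 to -0.02 between EV and the fl-CCs, or -0.42 to 0.09 without fl-CCs replicate 1, and were not called in either fit.

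Some members were called in opposite directions in different comparisons. Gins1, Pcna, Pole, Rrm1 and E2f1 were lower with EV than in the fl-CCs and higher with p53 R175H than with EV. Pcna averaged 12.41 ± 0.03 with p53 R175H, 11.96 ± 0.02 with EV and 12.49 ± 0.26 in the fl-CCs (SD, n = 3 each). E2f1 averaged 7.68 ± 0.03 in the mt-CCs, 7.39 ± 0.10 with p53 R175H, 6.87 ± 0.02 with EV and 7.36 ± 0.13 in the fl-CCs. Rrm1 was lower in the mt-CCs than in the fl-CCs over all arrays and higher with p53 R175H than with EV. Rfc4 was higher in the mt-CCs and lower with EV, each against the fl-CCs.

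The test of the difference of the differences asked whether the gap of the mt-CCs to the fl-CCs was the same as that of p53 R175H to EV. It was lower in 12 members and higher in 0, beside 18% of all genes lower and 18.9% higher (36.9% called either way), so the 33.3% of members called either way did not exceed that share. At an unadjusted p under 0.05 there were 17, 47.2% of the members against 46.5% of all genes. Without fl-CCs replicate 1 it was lower in 11 and higher in 3 (17.5% and 18.5% of all genes, 35.9% either way). The median over the members was -0.40, and -0.19 without that array, against 0.01 over all genes in both fits. Of the 12, 6 were licensing genes, namely Mcm2, Mcm4, Mcm6, Cdt1, Orc1 and Orc6. The other probe set of Mcm4 was not called in this test (-0.46, adjusted p = 0.0894). Orc1 gave -1.40 ± 0.39, Mcm10 -1.33 ± 0.35 and Pole -1.27 ± 0.31, and without fl-CCs replicate 1 they gave -1.13, -1.03 and -1.02, all called. Ccne2 was called too (adjusted p = 0.00121), but its fitted value of -2.04 ± 0.37 (-1.74 without that array) rests on an mt-CC level near background and has no place in an order of sizes. The higher ones without fl-CCs replicate 1 were Tk1 with 0.97 (adjusted p = 0.000345), Pole2 with 0.79 and Prim1 with 0.53. No member had a positive value past the threshold over all 12 arrays, where Tk1 gave 0.70 (adjusted p = 0.066).

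Other genes of the pathway were counted from a wider replication list, of which 68 were measured. In the mt-CCs 13 were higher and 21 lower than in the fl-CCs (19.1% and 30.9%, beside 21.2% and 20.2% of all genes), and 23 were higher and 16 lower without fl-CCs replicate 1 (33.8% and 23.5%, beside 20.1% and 18.7%). With p53 R175H 8 were higher and 9 lower than with EV, and these shares of 11.8% and 13.2% did not exceed the 14.1% and 13.7% of all genes. The counts were 16 higher and 12 lower without fl-CCs replicate 1 in the fit (23.5% and 17.6%, beside 14.6% and 14.3%). With EV 17 were lower than in the fl-CCs (25%, beside 8.18% of all genes) and 0 higher, and 15 were lower without that array (22.1%, beside 6.2%). Dut, which removes dUTP from the nucleotide pool, averaged 8.02 ± 0.21 in the mt-CCs and 6.24 ± 0.39 in the fl-CCs (1.78, and 1.93 without fl-CCs replicate 1). Samhd1, which degrades deoxyribonucleotides, averaged 10.90 ± 0.10 in the mt-CCs and 9.58 ± 0.14 in the fl-CCs, and Mcm9, a helicase of recombination repair, 7.35 ± 0.19 in the mt-CCs and 6.09 ± 0.28 in the fl-CCs. Samhd1 was also higher with p53 R175H than with EV, by 0.60 ± 0.09 (adjusted p = 0.000739). Hells, a chromatin remodeler, was lower in the mt-CCs by -1.71 ± 0.16 and Dck, a nucleoside kinase, by -1.30 ± 0.15. The exonuclease Exo1 averaged 4.29 in the mt-CCs, near background on every array, and 5.69 in the fl-CCs, and was lower by at least 0.69 on the log2 scale when measured against the level of 5 (adjusted p = 0.00597). All 6 were called without fl-CCs replicate 1 as well.

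Mitosis and G2/M genes, which follow S phase in the cycle, were counted beside the members. With EV 27 of 29 were lower than in the fl-CCs and 0 higher, and 24 of 29 without fl-CCs replicate 1 (93.1% and 82.8%, beside 8.18% and 6.2% of all genes). In the mt-CCs 11 were higher and 3 lower than in the fl-CCs (37.9% and 10.3%, beside 21.2% and 20.2% of all genes), and 16 and 3 without that array. With p53 R175H 9 were higher and 1 lower than with EV (31% and 3.45%, beside 14.1% and 13.7% of all genes), and 10 and 1 without it. In the mt-CCs Anln, a scaffold of the cleavage furrow, was higher by 1.42 ± 0.18, Cenpf, of the kinetochore, by 0.95 ± 0.12 and Tpx2, of the spindle, by 0.81 ± 0.12. Ect2, which starts cytokinesis, fell by 0.94 in the mt-CCs, the kinase Plk1 by 0.87 and Kif23, a spindle motor, by 0.73, each against the fl-CCs. Plk1 was also lower with EV than in the fl-CCs, by -1.34 ± 0.19 (adjusted p = 0.00084). All 6 differences between the mt-CCs and the fl-CCs passed the test without fl-CCs replicate 1 too.

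**Figure D4:**
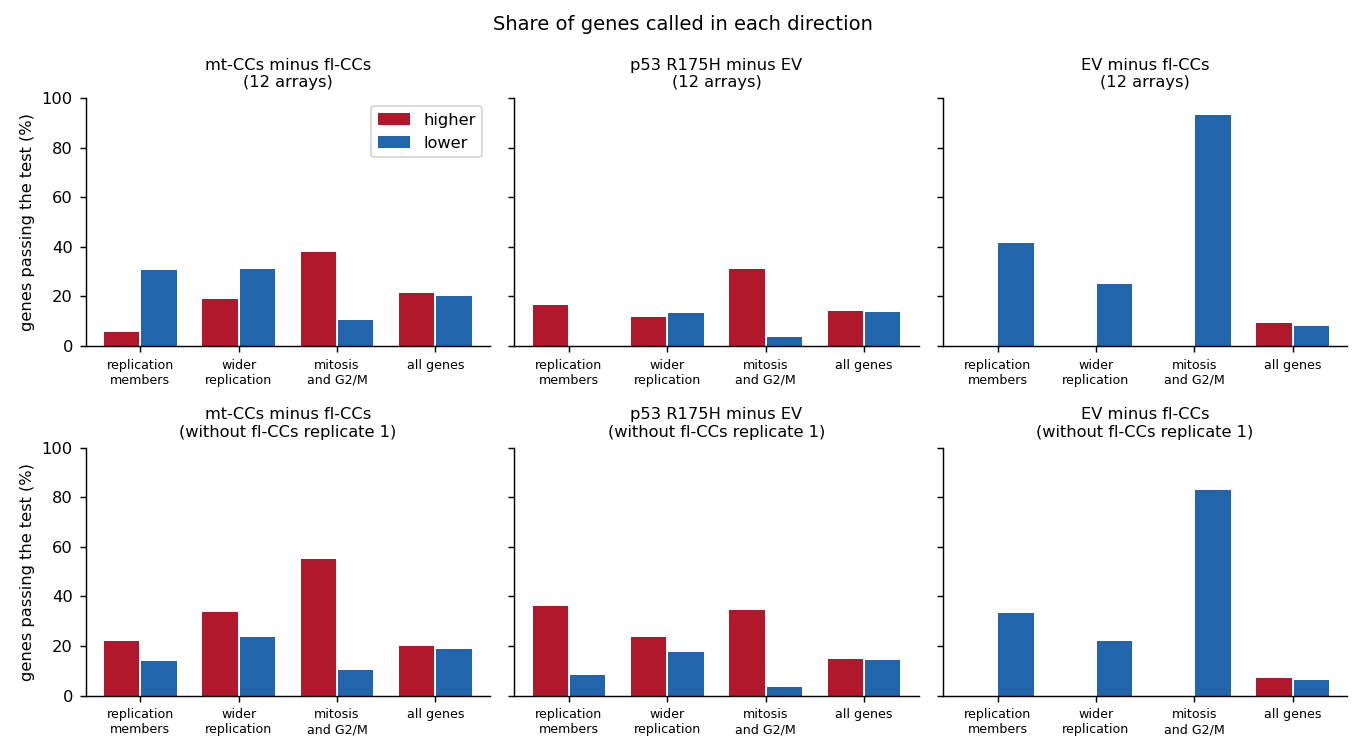
Share of genes called higher (red) and lower (blue), in percent, for the 36 replication members, 68 genes of the wider replication list, 29 mitosis and G2/M genes and all 18193 genes, in 3 comparisons over 12 arrays (top) and without fl-CCs replicate 1 (bottom). With EV against the fl-CCs, 41.7% of the members and 93.1% of the mitosis genes were lower beside 8.18% of all genes, and between the mt-CCs and the fl-CCs the members called lower were 30.6% (top) and 13.9% (bottom).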

How the data were processed

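Total RNA of the cells was extracted with RNeasy, labeled with biotin and hybridized to Affymetrix mouse GeneChips. Per the labels and methods, the authors checked quality with the affy package and normalized and summarized probe sets by RMA (version not given in the sources used here). The deposited values are log2 RMA intensities without detection calls. No further normalization was applied. Without the 64 control probe sets, 45037 of the 45101 in the table were fitted in R 4.3.3 with limma 3.58.1 (lmFit and eBayes, group means over 12 arrays, Benjamini-Hochberg adjustment, adjusted p of 0.05 or less, no fold limit, as in the methods, which name Partek). The fit was tested on simulated arrays.

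Gene symbols came from the platform annotation (34945 with 1 symbol, 932 with several, 9160 with none), of which 34741 matched RefSeq (GRCm38.p6) and 0 changed symbol. Each gene took the probe set with the smallest moderated F test p. The number of arrays limits the precision. The members and lists were chosen with earlier results of these data known. Genes with values for each array are, in each role, the member with the largest called difference in each comparison, and members called in opposite directions. In the other lists they are the 3 largest rises and falls in the mt-CCs. Mcm6, Pola1, and values of further members given for contrast, lie outside this rule and were named after their values were seen. Alternatives varied which arrays entered the fit, the replicate block, the moderation, the weighting of arrays, the removal of dim probe sets, the normalization, a fold limit, the probe set of a gene and leaving out each array. Trp53 was not analysed here.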

Additional observations from a re-analysis of the deposited data

Results flagged for a closer look

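In 12 members the difference between the mt-CCs and the fl-CCs was not the same as that between p53 R175H and EV, by the test of the difference of the differences (limma over 12 arrays, adjusted p of 0.05 or less), that is in 33.3% of the members beside 36.9% of all genes, so the members did not exceed the share over all genes. In all 12 the value was negative over 12 arrays. Ccne2 gave -2.04, with -1.40 in the mt-CCs and 0.64 with p53 R175H. Orc1 gave -1.40, Mcm10 -1.33, Pole -1.27, Mcm2 -1.10, Cdt1 -0.91 and Rrm1 -0.85. Gins2 and Mcm4 gave -0.79 each, Lig1 -0.72, Orc6 -0.60 and Mcm6 -0.59. Without fl-CCs replicate 1, Lig1 (-0.50, adjusted p = 0.0742) and Orc6 (-0.46, adjusted p = 0.0906) were no longer called and the other 10 were. Gins1 (-0.40) was then also called, and Tk1 (0.97), Pole2 (0.79) and Prim1 (0.53) had positive values past the threshold. The mt-CC level of Ccne2 lies near background, so the size of its value is not measured. Each p53 model is 1 line, so a difference between tumors of origin cannot be told apart from one of the p53 allele.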

How the results depend on the processing

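Between the mt-CCs and the fl-CCs 13 members were called. There were 6 with only the groups compared in the fit and 2 with a log2 difference of at least 1 required. With p53 R175H against EV 6 were called, and 12 with only the groups compared, 11 with an intensity trend, 11 with array weights, 11 among probe sets with a mean of at least 5, and 1 with the fold limit. With EV against the fl-CCs 15 were called, and 8 with only the groups compared and 2 with the fold limit. Of the 12 members with a difference of differences, 5 met the fold limit. The cause of these changes was not tested beyond the fold limit's own construction. Apart from the fit without fl-CCs replicate 1, the share of all genes called was not counted under the alternatives here and below. The counts of members thus cannot show whether a change is particular to these genes. Array weights were lowest in mt-CCs replicate 1 (0.549) and fl-CCs replicate 1 (0.556).

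Leaving out each array in turn gave 7 to 13 calls between the mt-CCs and the fl-CCs (8 without mt-CCs replicate 1 and 7 without mt-CCs replicate 2, and 8 higher and 5 lower without fl-CCs replicate 1), with a median difference of -0.28 to 0.10. It gave 5 to 16 with p53 R175H against EV (16 without fl-CCs replicate 1; median 0.19 to 0.29), 10 to 19 with EV against the fl-CCs (median -0.64 to -0.31) and 10 to 14 for the difference of differences (median -0.47 to -0.19, with -0.19 without fl-CCs replicate 1). Over all probe sets, same-numbered arrays showed no strong shared deviation (correlations of -0.09 to 0.06), which cannot show whether they were prepared together. With the replicate number as a block, the counts were 12 between the mt-CCs and the fl-CCs, 6 with p53 R175H, 11 with EV and 10 for the difference of differences. Of 25 called differences of named members, 234 of 275 values under the alternatives kept their direction and call, 41 kept the direction without the call and 0 reversed. Leaving out arrays, 269 of 300 kept both. Some alternatives could hardly change a call. Taking the probe set with the smallest p cannot lose one, and quantile normalization and median centring acted on arrays that already shared a median. Each of these kept all 25. The 25 were also chosen as the largest called, or from members called in opposite directions, so these tallies cannot show how far calls hold in general. The number of arrays and dim probe sets, of which 12 of 80 had a mean under 5, limit what can be seen.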
